A study of Homo sapiens with 4 samples.

Results

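The 51 genes described here build the route by which newly made proteins enter the endoplasmic reticulum (ER) and move between it and the Golgi. They were chosen by a rule on gene symbols from 19192 genes in the count tables, with earlier results of these data known. They fall into 4 groups. The translocon group has 18 genes (SRP, SEC61, SEC62, SEC63, SSR and SEC11 symbols) and the COPII group has 15 (SEC13, SEC16, SEC22, SEC23, SEC24 and SEC31 symbols). The COPI group has 8 coat subunits, and the cargo receptor group has 10 TMED genes, named for the p24 family. The group name follows the symbol, and a cargo receptor role was not checked for each TMED gene, TMED8 among them.

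The study sequenced footprints of translating ribosomes (ribosome-protected fragments, RPF) beside total RNA in SW480, an established human colorectal cancer cell line. One population was labelled IMP1-/-, lacking the RNA-binding protein that IGF2BP1 encodes, and the other was wild type. Each of the 4 libraries was made from 3 pooled culture plates, with 1 library for each genotype and kind, so differences rest on single libraries, without replicates and without p-values. The labels do not say how the knockout was made or whether it is 1 clone, and genotype, clone and culture cannot be told apart. For wild-type RNA the labels give SW840 in 1 field and SW480 in another.

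The signal recognition particle (SRP) binds signal peptides as they leave the ribosome and brings the ribosome to the ER, where the SEC61 channel threads the growing chain across or into the membrane. COPII coats bud vesicles that carry finished proteins out of the ER, and COPI coats return ER residents and receptors from the Golgi. The p24 proteins span the membrane of these vesicles, bind both coats, and take part in sorting cargo such as glycosylphosphatidylinositol-anchored proteins.

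Libraries held 3778316 RPF and 4932388 RNA reads in knockout-labelled cells, and 3782874 RPF and 5551479 RNA reads in wild type. IGF2BP1 checked the label only in part: it had 571 RNA reads in the knockout-labelled library and 598 in wild type, a ratio of 1.06 (95% counting interval 0.944 to 1.19), and 149 footprints in knockout-labelled and 285 in wild-type cells. The labels do not say which part of the gene was altered. The 9 intestinal epithelial markers summed to 27985 RNA reads in knockout-labelled and 46222 in wild-type cells, most of them from KRT8 (9172 RNA reads in knockout-labelled and 16173 in wild-type cells) and KRT18 (15373 in knockout-labelled and 26170 in wild-type cells). The markers did not move together: CDH1 was higher, with 286 RNA reads in knockout-labelled and 83 in wild-type cells, EPCAM had 1143 RNA reads in knockout-labelled and 1081 in wild-type cells, VIL1 had 2 RNA reads in knockout-labelled and 160 in wild-type cells, and KRT20 was at 0 in all 4 libraries. The 5 leukocyte markers summed to 221 RNA reads in knockout-labelled cells, all from CD68, and to 31 in wild type, 26 of them from CD68, while PTPRC and CD3E were at 0 in all 4 libraries. In knockout-labelled RNA the 3 endothelial markers summed to 45 reads, the 5 fibroblast markers to 27 and the 4 markers of professional secretory cells to 21, against 58, 11 and 8 in wild-type RNA. The part of these marker differences in the results was not tested. In bulk libraries, fewer cells of a type and less RNA per cell cannot be told apart.

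Many of the transport genes were higher in the knockout-labelled cells, and none was called lower in RNA or in footprints. A gene was called when its scaled ratio was at least 1.5-fold and the 95% counting interval excluded no change, provided that the 2 libraries of that kind together held 50 reads or more. In RNA, 19 of the 46 members measured were higher and 0 were lower, beside 16.2% higher and 17.8% lower among all 10875 genes measured. In RPF, 17 of 44 were higher and 0 lower, beside 19.0% higher and 20.1% lower of 9794 genes. The median RNA change of the members was 0.50 on the log2 scale, against -0.01 over all genes, and the median RPF change was 0.51, against 0.00. Changes are log2 ratios throughout, knockout-labelled over wild type. At a fold of 2 or more, 5 of 46 members were higher in RNA, beside 6.39% of all genes, and 5 of 44 in footprints, beside 9.00%. All of these but SEC24D in RNA, and all but SEC24D and SRP72 in footprints, start beyond 90 Mb on chromosome 3.

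**Figure D1:**
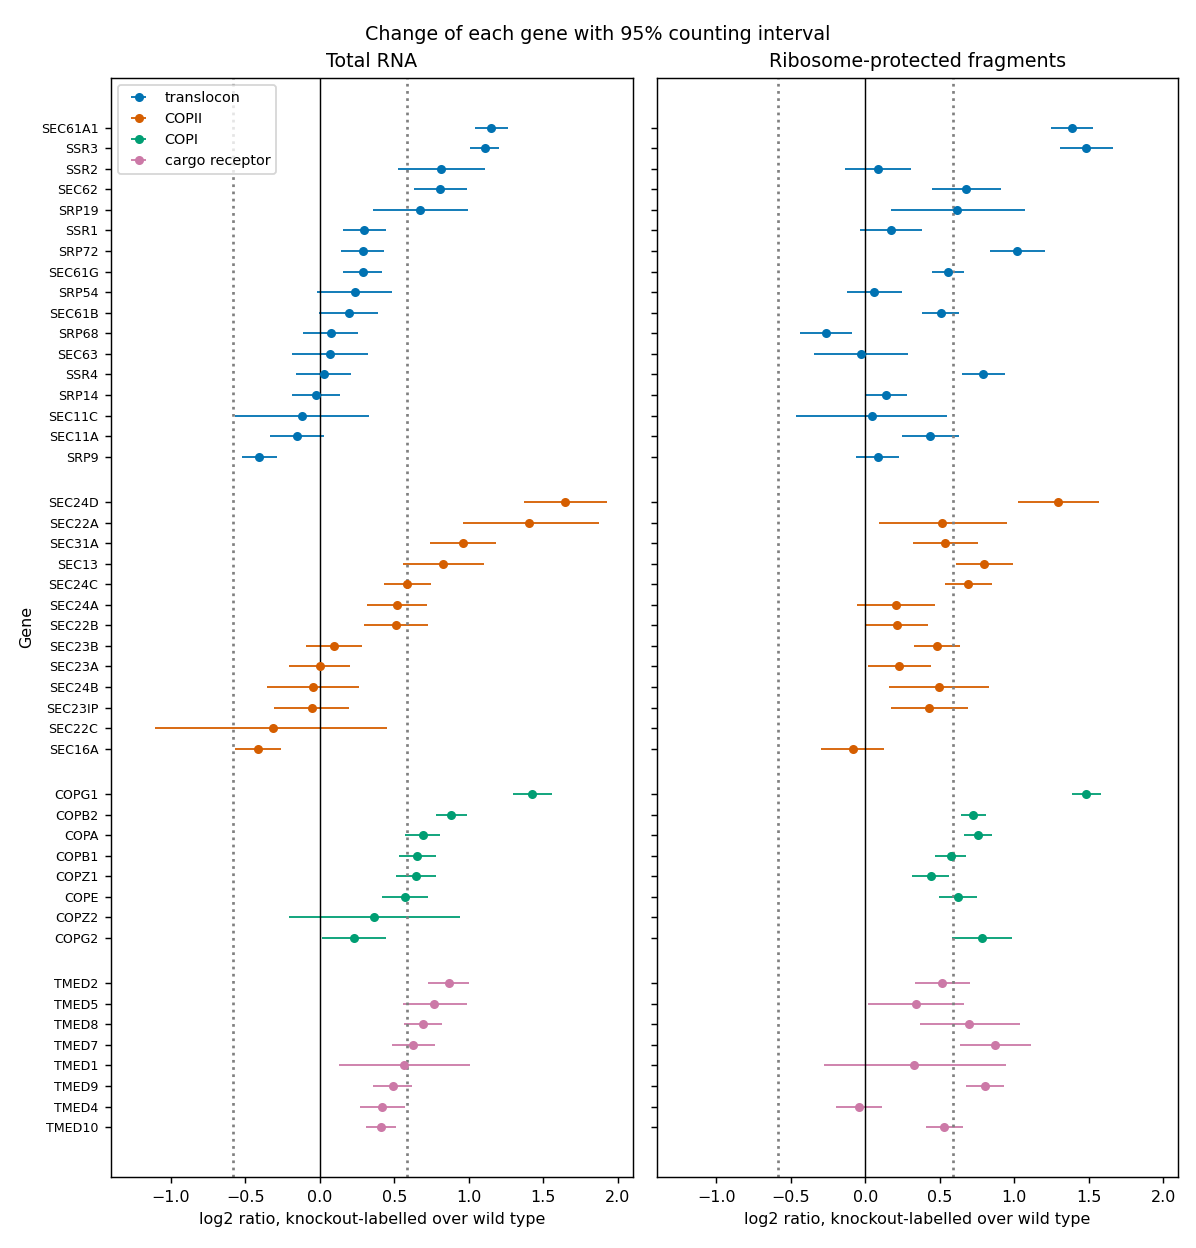
Each point is the log2 ratio for 1 gene, knockout-labelled over wild type, in total RNA (left, 46 genes) and in ribosome-protected fragments (right, 44 genes), sorted by RNA change within each group; bars are 95% counting intervals and dotted lines mark 1.5-fold. SEC24D and COPG1 lie farthest to the right in RNA, COPG1 and SSR3 in footprints, and no gene lies left of the lower dotted line.

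Translational efficiency (TE), the ratio of footprints to RNA, moved in few members. Its change, RPF change minus RNA change, was called higher in 3 and lower in 2 of 44 members, beside 15.7% higher and 13.9% lower of 9598 genes, with a median of 0.05 in the members and 0.03 over all genes. Members and all genes were not matched for read depth, so the shares called are not compared at equal counting error. RNA and footprints were both called higher in 12 of 44 members (27.3%), against 757 of 9598 genes (7.89%). RNA alone was higher in 7 members, footprints alone in 5, and neither in 20. The 12 genes lie at the upper right of the scatter of RNA and footprint changes.

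**Figure D2:**
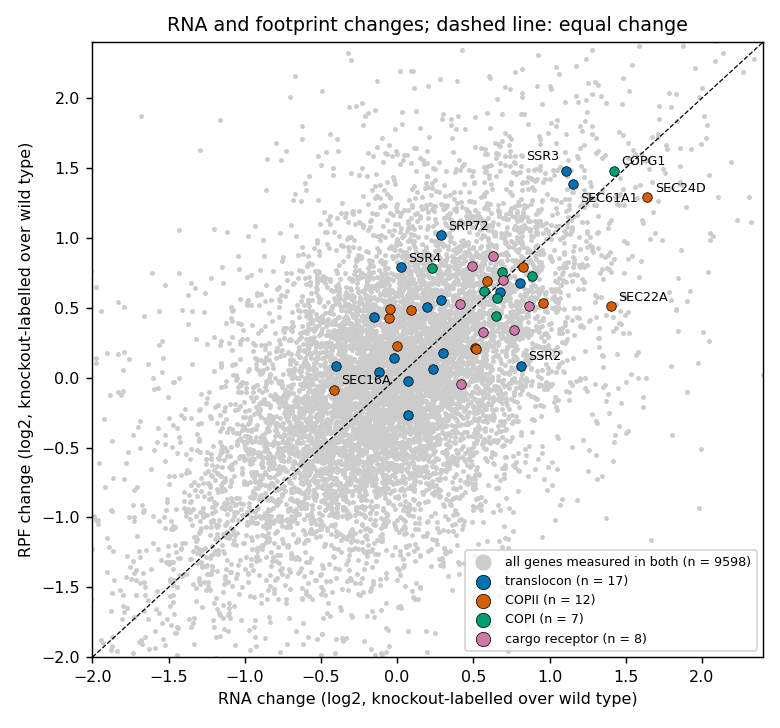
RPF change against RNA change (both log2, knockout-labelled over wild type) for 44 members coloured by group and, in grey, all 9598 genes measured in both; grey genes beyond the axes are not drawn. SSR3, SEC61A1, COPG1 and SEC24D stand highest on both axes, and SEC22A and SSR2 lie below the dashed line of equal change.

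In the translocon group, 5 of 17 measured genes (29.4%) were higher in RNA, with a median of 0.23. In footprints 6 of 17 (35.3%) were higher, with a median of 0.44. Among all genes 16.2% were higher in RNA and 19.0% in footprints. Without SEC61A1, SSR3 and SEC62, which lie on 1 stretch of chromosome 3, the medians were 0.13 and 0.16, with 2 and 3 of 14 genes higher. Those counts are near the shares of all genes, so the rest of the group did not stand out by calls. SEC61A1, the pore-forming subunit of the channel (ENST00000243253, chr3:128052369-128071682, plus strand, GRCh38), had 1914 RNA reads in the knockout-labelled library and 956 in wild type. It had 1498 footprints in knockout-labelled and 572 in wild-type cells. Both kinds of library were thus higher in the knockout-labelled cells, by 2.22-fold (2.06 to 2.41) in RNA and 2.62-fold (2.38 to 2.89) in footprints. The small subunits did not pass the call. SEC61B, a tail-anchored subunit, had 417 RNA reads and 1235 footprints in knockout-labelled cells, against 405 and 870 in wild type, changes of 0.19 (-0.01 to 0.39) and 0.50 (0.38 to 0.63). SEC61G had 1044 RNA reads and 1766 footprints in knockout-labelled cells, against 950 and 1200 in wild type, changes of 0.29 (0.16 to 0.42) and 0.56 (0.45 to 0.66). SEC61A2, the second gene for the pore subunit, was under the minimum with 25 RNA reads and 14 footprints in knockout-labelled cells, against 12 and 9 in wild type. SEC61A1 gave at least 98% of the reads of the pair in every library.

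The TRAP complex, which sits beside the channel and helps some signal peptides open it, had a different profile in each of its 4 genes. SSR3 (ENST00000265044, chr3:156540140-156555184, minus strand) had 2598 RNA reads in the knockout-labelled library and 1340 in wild type, and 979 footprints in knockout-labelled and 350 in wild-type cells. Both were higher in knockout-labelled cells, by 2.15-fold (2.01 to 2.30) in RNA and 2.79-fold (2.47 to 3.17) in footprints. SSR2 was higher in RNA, with 255 RNA reads in knockout-labelled and 161 in wild-type cells, a change of 0.81 (0.52 to 1.11), while its footprints numbered 344 in knockout-labelled and 324 in wild-type cells. Its TE was called lower, with a log2 change of -0.73 (-1.09 to -0.37). SSR4 was the opposite case, with 451 RNA reads and 1088 footprints in knockout-labelled cells, against 492 and 628 in wild type. Its footprints were 1.73-fold higher and its TE change of 0.77 (0.53 to 1.00) was the largest among the 44 members. SSR1 had 828 RNA reads and 412 footprints in knockout-labelled cells, against 748 and 365 in wild type, and neither kind passed the call.

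Of the 6 SRP proteins, SRP72 and SRP19 were called higher in footprints and SRP19 in RNA. SRP72, which with SRP68 forms the large protein pair of the particle, had 820 RNA reads and 714 footprints in knockout-labelled cells, against 746 and 352 in wild type. Footprints were 2.03-fold (1.78 to 2.31) higher in knockout-labelled cells and the TE change was 0.73 (0.50 to 0.96). Its partner SRP68 had 479 RNA reads and 515 footprints in knockout-labelled cells, against 506 and 618 in wild type, changes of 0.07 (-0.11 to 0.26) and -0.26 (-0.44 to -0.09). SRP19, which helps assemble the particle, had 203 RNA reads and 109 footprints in knockout-labelled cells, against 141 and 71 in wild type, or 1.60-fold and 1.53-fold. SRP9, part of the domain that pauses elongation, had the lowest RNA change of the translocon group at -0.40 (-0.52 to -0.29), with 1012 RNA reads in knockout-labelled and 1488 in wild-type cells, short of the call. Its partner SRP14 and SRP54, which binds the signal peptide, passed no call: SRP14 had 604 RNA reads and 878 footprints in knockout-labelled cells, against 682 and 796 in wild type, and SRP54 had 270 RNA reads and 506 footprints in knockout-labelled cells, against 255 and 485 in wild type.

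SEC62 and SEC63 join the channel for chains that enter after translation. SEC62 was higher in both kinds, with 668 RNA reads in knockout-labelled and 424 in wild-type cells (1.75-fold) and 405 footprints in knockout-labelled and 253 in wild-type cells (1.60-fold). SEC63 had 255 RNA reads and 168 footprints in knockout-labelled cells, against 270 and 171 in wild type, both within counting error. SEC11A and SEC11C are alternative catalytic subunits of signal peptidase, which removes the signal peptide. SEC11A had 454 RNA reads and 546 footprints in knockout-labelled cells, against 560 and 403 in wild type, and neither kind passed the call, but its TE change of 0.59 (0.33 to 0.85) did, just past the 1.5-fold size. That call was lost with scaling by total counts, at 0.57. SEC11C had 78 RNA reads and 69 footprints in knockout-labelled cells, against 94 and 67 in wild type.

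In the COPII group, 5 of 13 genes were higher in RNA (median 0.51) and 3 of 12 in footprints (median 0.49). Without SEC22A, on the same stretch of chromosome 3, the RNA median was 0.30. SEC24D, 1 of the 4 cargo-binding subunits of the inner coat (ENST00000280551, chr4:118722823-118836138, minus strand), had 417 RNA reads in the knockout-labelled library and 148 in wild type, and 385 footprints in knockout-labelled and 157 in wild-type cells. That was 3.12-fold (2.59 to 3.80) higher in RNA, the largest RNA change of the 46 members, and 2.45-fold (2.03 to 2.97) higher in footprints. Among the SEC24 reads, SEC24D made up 22.9% of RNA in knockout-labelled cells (exact 95% interval 21.0 to 24.9) and 11.6% in wild type (9.92 to 13.5). Its share of SEC24 footprints was 22.8% (20.8 to 24.9) in knockout-labelled and 15.0% (12.9 to 17.3) in wild-type cells. These intervals cover counting error in single libraries, not variation between cultures. SEC24C was the most abundant paralog by reads, at 778 RNA reads and 855 footprints in knockout-labelled cells, against 575 and 530 in wild type, and was also called higher in both kinds, with changes of 0.59 (0.43 to 0.75) and 0.69 (0.53 to 0.85). Its RNA change lay just past the 1.5-fold size and lost the call with median-of-ratios scaling, at 0.57. SEC24A had 464 RNA reads and 265 footprints in knockout-labelled cells, against 360 and 230 in wild type, and SEC24B had 165 RNA reads and 183 footprints in knockout-labelled cells, against 189 and 130 in wild type. Neither passed the call in RNA or footprints.

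Both measured subunits of the outer cage were higher in RNA. SEC13 had 296 RNA reads and 620 footprints in knockout-labelled cells, against 185 and 357 in wild type, called changes of 0.83 in RNA and 0.79 (0.61 to 0.99) in footprints. SEC13 also serves in the nuclear pore and in nutrient sensing complexes. SEC31A had 464 RNA reads in knockout-labelled and 265 in wild-type cells, a called change of 0.96 (0.74 to 1.18), and 421 footprints in knockout-labelled and 290 in wild-type cells, a change of 0.54 (0.32 to 0.76) that missed the 1.5-fold size. SEC31B was at 0 reads in all 4 libraries, where a count of 0 allowed up to 0.794 CPM (reads scaled to equal library totals) in knockout-labelled RPF and 0.608 in knockout-labelled RNA, and 0.793 and 0.540 in wild-type RPF and RNA.

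The inner-coat SEC23 pair, which stimulates GTP hydrolysis by SAR1, stayed below the call in RNA and footprints. SEC23A had 367 RNA reads and 408 footprints in knockout-labelled cells, against 408 and 348 in wild type. SEC23B had 459 RNA reads and 813 footprints in knockout-labelled cells, against 478 and 582 in wild type, an RPF change of 0.48 (0.33 to 0.64), and gave 66.6% of SEC23 footprints in knockout-labelled and 62.6% in wild-type cells. SEC23IP, a SEC23-binding protein, had 249 RNA reads and 298 footprints in knockout-labelled cells, against 287 and 221 in wild type. SEC16A, the scaffold of ER exit sites, had the lowest RNA change of all members at -0.41 (-0.57 to -0.26), with 592 RNA reads in knockout-labelled and 875 in wild-type cells, short of the call. Its footprints numbered 365 in knockout-labelled and 387 in wild-type cells. SEC16B had 11 RNA reads in knockout-labelled and 2 in wild-type cells and no footprint in either library.

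The 3 SEC22 genes are related by a longin fold, and SEC22B is the SNARE that acts in vesicle fusion between ER and Golgi. SEC22A (ENST00000492595, chr3:123201958-123271722, plus strand) had 141 RNA reads in the knockout-labelled library and 59 in wild type, 2.64-fold higher. It had 113 footprints in knockout-labelled and 79 in wild-type cells, a change of 0.51 (0.09 to 0.95) that missed the 1.5-fold size, and its TE was called lower at -0.89 (-1.49 to -0.29). SEC22A took 24.2% (20.8 to 27.9) of SEC22 RNA reads in knockout-labelled cells and 14.1% (10.9 to 17.8) in wild type. SEC22B had 416 RNA reads and 413 footprints in knockout-labelled cells, against 324 and 356 in wild type, and passed no call. SEC22C had 26 RNA reads in knockout-labelled and 36 in wild-type cells, a change of -0.31 with an interval that spans 0, and 28 footprints in knockout-labelled and 14 in wild-type cells, under the minimum.

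In RNA 5 of 8 COPI subunits were higher, with a median of 0.65, and in footprints 5 of 7, with a median of 0.72. These are 62.5% in RNA and 71.4% in footprints, beside 16.2% and 19.0% of all genes. Without COPG1 and COPB2, on the same stretch of chromosome 3, the medians were 0.61 and 0.62. Summed over the 8 genes, COPI held 8789 RNA reads in knockout-labelled and 5607 in wild-type cells, and 13614 footprints in knockout-labelled and 7698 in wild-type cells. With the TMM scaling of each kind (trimmed mean of M-values), the sums in knockout-labelled cells were 1.74 times (1.68 to 1.80) as high as in wild type in RNA and 1.77 times (1.72 to 1.82) in footprints. The same scaled ratio of sums was 1.34 in RNA and 1.45 in footprints for the translocon group, 1.28 and 1.40 for COPII, and 1.49 and 1.44 for the cargo receptors. The COPI sums include COPG1 and COPB2, and the translocon and COPII sums also include genes of that stretch. Sums without those genes were not taken, so the groups are not ranked by them.

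COPG1, a gamma subunit of the layer that binds ARF1 and cargo (ENST00000314797, chr3:129249606-129277773, plus strand), had 1699 RNA reads in the knockout-labelled library and 702 in wild type. It had 3336 footprints in knockout-labelled and 1193 in wild-type cells. It was 2.69-fold (2.46 to 2.94) higher in RNA and 2.79-fold (2.62 to 2.99) in footprints, and its TE change was 0.06 (-0.10 to 0.22). The paralog COPG2 had 375 RNA reads in knockout-labelled and 355 in wild-type cells, a change of 0.23 (0.02 to 0.44), and 558 footprints in knockout-labelled and 324 in wild-type cells, a called change of 0.78 (0.58 to 0.99). COPG1 made up 81.9% (80.2 to 83.6) of COPG RNA reads in knockout-labelled cells and 66.4% (63.5 to 69.3) in wild type. Its share of COPG footprints was 85.7% (84.5 to 86.8) in knockout-labelled and 78.6% (76.5 to 80.7) in wild-type cells. Reads that the authors could have split between such near copies make these shares uncertain.

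COPA and COPB2, the alpha and beta-prime subunits of the outer layer, were higher in both kinds. COPA had 1444 RNA reads and 2390 footprints in knockout-labelled cells, against 993 and 1414 in wild type, or 1.61-fold and 1.69-fold. COPB2 had 2017 RNA reads and 2953 footprints in knockout-labelled cells, against 1214 and 1786 in wild type, or 1.84-fold and 1.65-fold. COPE, the epsilon subunit that braces COPA, had 794 RNA reads in knockout-labelled and 593 in wild-type cells, a change of 0.57 (0.42 to 0.73) just under the 1.5-fold size, and 1267 footprints in knockout-labelled and 822 in wild-type cells, a called change of 0.62 (0.50 to 0.75). COPB1 (beta) and COPZ1 (zeta) were called in RNA alone. COPB1 had 1289 RNA reads and 1843 footprints in knockout-labelled cells, against 910 and 1239 in wild type, changes of 0.65 and 0.57. COPZ1 had 1113 RNA reads and 1243 footprints in knockout-labelled cells, against 790 and 917 in wild type, changes of 0.65 and 0.44. COPZ2, the second zeta gene, had 58 RNA reads in knockout-labelled and 50 in wild-type cells, a change of 0.36 (-0.21 to 0.94), and 24 footprints in knockout-labelled and 3 in wild-type cells, under the minimum.

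Of the 10 cargo receptors, 8 were measured, 4 were higher in RNA (median 0.60) and 3 in footprints (median 0.52). These are 50% in RNA and 37.5% in footprints, beside 16.2% and 19.0% of all genes. TMED2, a p24-beta protein, had 1115 RNA reads in knockout-labelled and 680 in wild-type cells (1.82-fold) and 597 footprints in knockout-labelled and 417 in wild-type cells, an RPF change of 0.52. Its usual partner TMED10 had 1807 RNA reads and 1289 footprints in knockout-labelled cells, against 1511 and 892 in wild type, changes of 0.41 (0.31 to 0.51) and 0.53 (0.41 to 0.66) that did not reach 1.5-fold. TMED9 had 1090 RNA reads in knockout-labelled and 862 in wild-type cells, a change of 0.49 (0.36 to 0.62), and 1382 footprints in knockout-labelled and 792 in wild-type cells, a called change of 0.80 (0.68 to 0.93). Both kinds were called for TMED7, with 949 RNA reads and 410 footprints in knockout-labelled cells, against 682 and 224 in wild type, and for TMED8, with 1186 RNA reads and 195 footprints in knockout-labelled cells, against 815 and 120 in wild type. TMED5 was called in RNA, with 456 RNA reads in knockout-labelled and 297 in wild-type cells, and had 186 footprints in knockout-labelled and 147 in wild-type cells. TMED4 was the only cargo receptor with an RPF change below 0, at -0.04 (-0.20 to 0.11), with 811 RNA reads and 688 footprints in knockout-labelled cells, against 673 and 708 in wild type. TMED1 had 104 RNA reads and 54 footprints in knockout-labelled cells, against 78 and 43 in wild type, and TMED3 and TMED6 were at 0 reads in all 4 libraries.

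Levels between genes were compared in TPM, reads per kilobase of the listed transcript scaled to the same total in every library. With coding length in place of transcript length, COPZ1 led COPI in all 4 libraries, TMED9 led in none, SEC13 ranked 2 in knockout-labelled RNA and wild-type RPF, SEC23B ranked 2 in wild-type RNA, and SEC61G ranked 2 in wild-type RNA. SEC61G was highest in the translocon group in all 4 libraries, with RNA levels (TPM) of 954 in knockout-labelled and 745 in wild-type cells and RPF levels of 1759 in knockout-labelled and 1219 in wild-type cells. SEC61A2 was lowest, with RNA levels of 5.54 in knockout-labelled and 2.28 in wild-type cells. In COPI, COPE was highest, with RPF levels of 508 in knockout-labelled and 336 in wild-type cells, and COPZ2 lowest, with 12.3 in knockout-labelled and 1.56 in wild-type cells. TMED9 led the cargo receptors, with RPF levels of 429 in knockout-labelled and 251 in wild-type cells. The lowest of the 8 measured cargo receptors were TMED8 in footprints, with 11.5 in knockout-labelled and 7.19 in wild-type cells, and TMED5 in RNA, with 31.3 in knockout-labelled and 17.5 in wild-type cells. With coding length, TMED1 was the lowest of the 8 in all 4 libraries. In COPII, SEC13 was highest in footprints, with 199 in knockout-labelled and 117 in wild-type cells, while SEC22C had RPF levels of 9.27 in knockout-labelled and 4.73 in wild-type cells. In RNA, SEC13 led COPII in knockout-labelled cells and SEC23B in wild type, and SEC16B was lowest of the COPII genes with reads, with 1.16 in knockout-labelled and 0.181 in wild-type cells.

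The group medians differed in the level of TE, the log2 ratio of RPF to RNA CPM within a genotype, but the ranges overlapped. In knockout-labelled cells COPI spanned 0.54 to 1.36, within the translocon range (-1.02 to 1.95) and the COPII range (-0.42 to 1.45). The COPI median was 0.96 in knockout-labelled and 1.02 in wild-type cells, where the medians of all genes were 0.13 in knockout-labelled and 0.11 in wild-type cells. All 7 measured COPI genes lay above those medians in both genotypes, COPZ1 being lowest in knockout-labelled cells at 0.54 and COPG2 in wild type at 0.42. The cargo receptors had medians of -0.54 in knockout-labelled and -0.25 in wild-type cells, and TMED8 had the lowest level of the 44 members, -2.22 in knockout-labelled and -2.21 in wild-type cells. Medians in knockout-labelled cells were 0.45 for COPII and 0.21 for the translocon group, against 0.54 and 0.07 in wild type. The translocon group was also the widest, with SEC61B at 1.95 in knockout-labelled and 1.66 in wild-type cells and SSR3 at -1.02 in knockout-labelled and -1.38 in wild-type cells. These levels use total reads of each library, were not tested between groups, and depend on which part of each transcript was counted, which is not given in the sources used here.

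**Figure D3:**
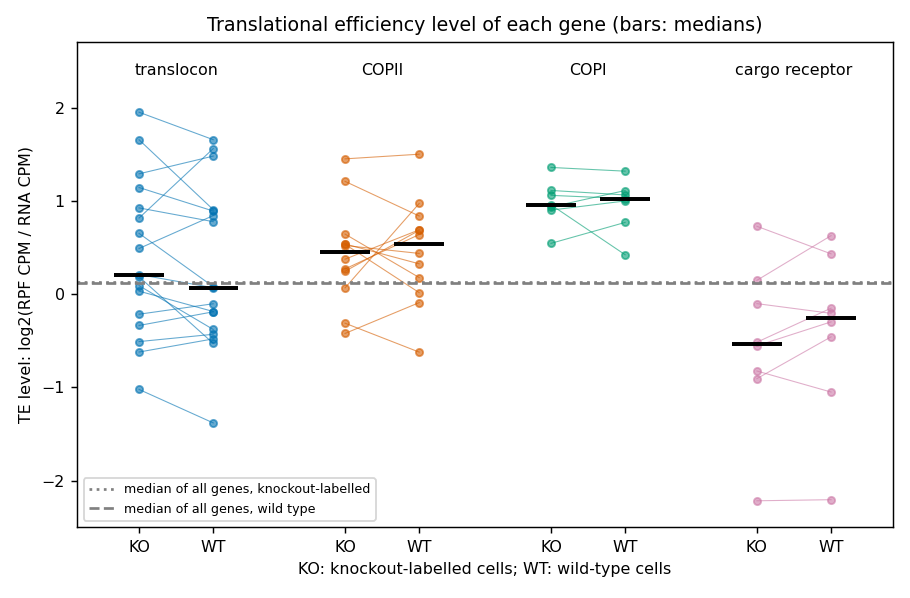
Translational efficiency level (log2 of footprint over RNA CPM) of each of 44 genes in knockout-labelled (KO) and wild-type (WT) cells, with lines joining 1 gene, black bars for group medians and grey lines for the medians of all genes. COPI lies above the grey lines in both genotypes (medians of 0.96 in KO and 1.02 in WT), and 6 of 8 cargo receptors lie below them.

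Position along the genome moved with the size of the change. Of the 51 genes, 8 are on chromosome 3, and 6 of these start beyond 90 Mb (SEC61A1, COPG1, SEC22A, COPB2, SSR3 and SEC62). All 6 were called higher in RNA, with a median of 1.13, and 5 of 6 in footprints, with a median of 1.06. The 292 other genes measured in that stretch had a median RNA change of 0.33, with 28.1% higher and 6.85% lower. Other genes on the rest of chromosome 3 had a median of -0.06 with 12.4% higher, and those on all other chromosomes had -0.02 with 15.8% higher. Genome copy number was not measured, and its part in these values was not tested.

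Each of the 6 genes also had an RNA change above the median of the other genes within 5 Mb on either side. These neighbours numbered from 18 for SEC62 to 51 for SEC22A. The RNA change minus the median of those neighbours was 1.14 for COPG1, 1.11 for SSR3, 1.09 for SEC22A, 0.89 for SEC61A1, 0.59 for COPB2 and 0.30 for SEC62. In footprints the same difference ran from 0.23 for SEC22A to 1.66 for SSR3. Single neighbours can lie above a member. Members elsewhere were higher in RNA in 13 of 40 cases and lower in 0, with a median of 0.39, and higher in footprints in 12 of 38, with a median of 0.49. COPI without COPG1 and COPB2 had 3 of 6 genes higher in RNA and 3 of 5 in footprints.

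**Figure D4:**
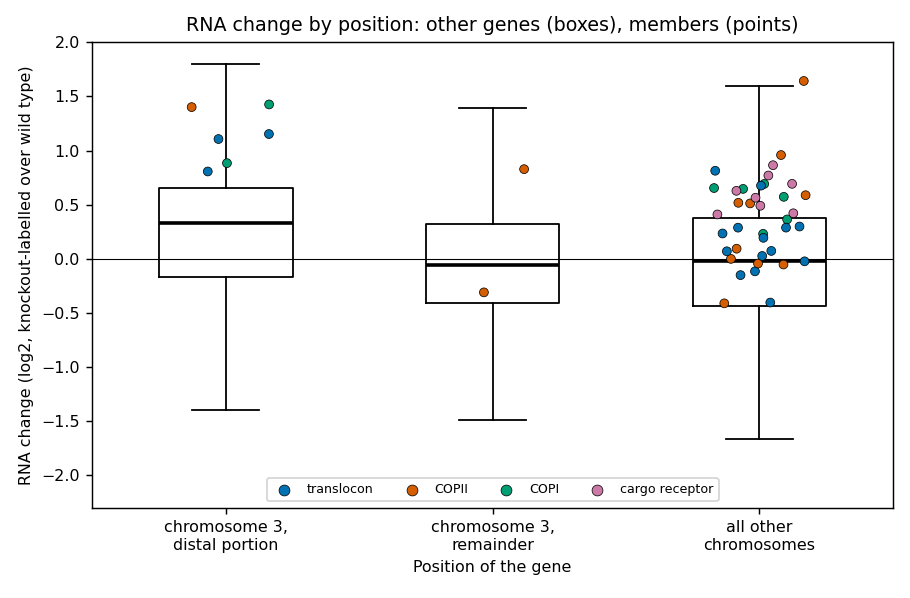
RNA change (log2, knockout-labelled over wild type) by position of the gene; boxes show median and quartiles of genes that are not members, whiskers reach 1.5 times the interquartile range, and points are members coloured by group. The distal portion of chromosome 3 is the stretch beyond 90 Mb, where 6 members lie above the upper quartile of the other genes of that stretch.

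Promoter windows from RefSeq (GRCh38.p14, 250 bases before to 50 after a start site) were found for 48 of the 51 genes; SEC24D, TMED4 and TMED9 had none. They were searched on both strands for the unfolded protein response element TGACGTGG (CCACGTCA on the other strand), bound by XBP1 and ATF6, and for the ER stress elements ERSE (CCAAT and CCACG with 9 bases between) and ERSE-II (ATTGG and CCACG with 1 base between). The 3 words overlap in the run CCACG. The first word was present in 11 of 48 members (22.9%), in 95 of 8268 other genes measured in RNA (1.15%) and in 256 of 35116 windows in all (0.729%). Some genes have several windows. With windows limited to those within 300 bases of the listed transcript's start, 7 of 44 members (15.9%) and 62 of 7115 other genes (0.871%) held it. ERSE and ERSE-II were in 0 members, where 0.0769% of all windows held ERSE and 0.0541% held ERSE-II. Median GC content was 64.7% in the members' windows and 65.3% in those of other measured genes.

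The windows of the 5 holders of this word that rank highest in RNA change, by the lower bound of the interval, are shown 5′ to 3′ on the gene's own strand, with the word in capitals. They are at chr3:156554076-156554375 (minus strand), chr3:139389598-139389897 (minus), chr3:169966557-169966856 (plus), chr1:160343201-160343500 (minus) and chr11:14499762-14500061 (minus). The word begins at base -41 from the start site in SSR3, at -196 and again at -3 in COPB2, at -17 in SEC62, at 6 in COPA and at -48 in COPB1. The SSR3 window belongs to a start site 1059 bases from that of the listed transcript.
SSR3: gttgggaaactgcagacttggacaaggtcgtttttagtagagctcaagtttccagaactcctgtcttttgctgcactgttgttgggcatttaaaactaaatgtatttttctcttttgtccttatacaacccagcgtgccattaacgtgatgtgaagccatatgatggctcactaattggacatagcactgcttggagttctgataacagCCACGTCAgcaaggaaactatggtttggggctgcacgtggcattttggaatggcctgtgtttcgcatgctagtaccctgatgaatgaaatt
COPB2: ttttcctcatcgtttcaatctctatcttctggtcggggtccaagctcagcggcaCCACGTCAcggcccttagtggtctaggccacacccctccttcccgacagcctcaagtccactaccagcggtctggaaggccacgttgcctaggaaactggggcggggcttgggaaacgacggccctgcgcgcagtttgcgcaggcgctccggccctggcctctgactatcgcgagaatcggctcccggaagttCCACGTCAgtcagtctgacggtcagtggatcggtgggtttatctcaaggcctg
SEC62: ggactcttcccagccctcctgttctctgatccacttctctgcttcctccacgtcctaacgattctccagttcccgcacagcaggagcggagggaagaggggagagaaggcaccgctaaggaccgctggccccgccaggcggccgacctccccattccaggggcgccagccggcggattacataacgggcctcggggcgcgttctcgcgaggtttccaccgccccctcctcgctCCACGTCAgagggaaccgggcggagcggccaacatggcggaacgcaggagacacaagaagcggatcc
COPA: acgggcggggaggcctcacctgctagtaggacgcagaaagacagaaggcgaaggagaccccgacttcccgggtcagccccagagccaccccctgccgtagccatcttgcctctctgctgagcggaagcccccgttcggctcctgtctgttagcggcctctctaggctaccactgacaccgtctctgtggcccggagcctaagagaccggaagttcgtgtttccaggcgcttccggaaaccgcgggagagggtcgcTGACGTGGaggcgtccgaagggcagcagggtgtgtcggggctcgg
COPB1: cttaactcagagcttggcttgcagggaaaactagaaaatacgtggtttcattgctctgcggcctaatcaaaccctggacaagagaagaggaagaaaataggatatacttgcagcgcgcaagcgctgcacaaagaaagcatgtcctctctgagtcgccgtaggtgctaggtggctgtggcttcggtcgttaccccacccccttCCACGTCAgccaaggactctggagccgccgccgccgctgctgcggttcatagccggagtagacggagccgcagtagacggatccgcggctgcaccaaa

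The other holders were SRP19, SEC24A, SSR4, SEC23A, SEC16A and SEC16B. The SEC16A, SEC16B and SSR4 windows belong to start sites 7051, 14369 and 477 bases from those of the listed transcripts. The word read CCACGTCA on the gene's strand in SRP19, SSR4 and SEC16A, and TGACGTGG in SEC24A, SEC23A and SEC16B. Members with the word had 6 of 10 genes higher in RNA, with a median of 0.66, and members without it 12 of 33, with a median of 0.36. In footprints the counts were 6 of 10, with a median of 0.65, and 9 of 31, with a median of 0.49. Of the holders, SSR3, COPB2 and SEC62 lie on the distal stretch of chromosome 3. Without the 6 chromosome 3 genes, members with the word had 3 of 7 higher in RNA (median 0.52) and 3 of 7 in footprints (median 0.57), and members without it had 9 of 30 (median 0.29) and 7 of 28 (median 0.46). Other genes with the word were higher in RNA in 15 of 95 cases (15.8%), and other genes without it in 15.9%. In footprints these shares were 22.8% with the word and 18.2% without it. COPG1 and SEC61A1, high in both kinds of library, held no match. A match is a run of letters and does not show that a factor binds there.

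Genes that work with these members but have other symbols were taken from 7 lists, of which 6 act directly in the pathway. Their counts stand beside the shares of all measured genes given above, 16.2% higher in RNA and 19.0% in footprints. Of 25 genes for targeting and translocation, 7 were higher and 3 lower in RNA (median 0.02), and 11 higher and 3 lower in footprints (median 0.33). Both subunits of the SRP receptor were higher in both kinds: SRPRB had 476 RNA reads and 516 footprints in knockout-labelled cells, against 218 and 270 in wild type, and SRPR had 1146 RNA reads and 1287 footprints in knockout-labelled cells, against 769 and 670 in wild type. SRPRB lies on the distal stretch of chromosome 3, where 28.1% of other genes were higher in RNA. The ER membrane protein complex, an insertase, was split. EMC4 and EMC7 were higher in both kinds: EMC4 had 414 RNA reads and 651 footprints in knockout-labelled cells, against 280 and 289 in wild type, and EMC7 had 327 RNA reads and 392 footprints in knockout-labelled cells, against 229 and 229 in wild type. EMC3 was higher in RNA alone, with 88 RNA reads in knockout-labelled and 60 in wild-type cells. EMC6 and EMC1 were higher in footprints alone: EMC6 had 280 footprints in knockout-labelled and 118 in wild-type cells, and EMC1 had 263 footprints in knockout-labelled and 158 in wild-type cells. EMC10 was lower in both kinds, with 78 RNA reads and 71 footprints in knockout-labelled cells, against 285 and 209 in wild type, and so was EMC9, with 39 RNA reads and 42 footprints in knockout-labelled cells, against 91 and 79 in wild type. The other genes of the list called in RNA were the chaperone HSPA13 (540 RNA reads in knockout-labelled and 327 in wild-type cells) and the tail-anchor receptor subunit WRB (252 RNA reads in knockout-labelled and 150 in wild-type cells), both higher, and SGTA (281 RNA reads in knockout-labelled and 492 in wild-type cells), lower. TRAM2 was lower in footprints (23 footprints in knockout-labelled and 43 in wild-type cells). Of 11 oligosaccharyltransferase genes, 2 were higher in RNA (RPN1, 1196 RNA reads in knockout-labelled and 817 in wild-type cells, and KRTCAP2, 174 RNA reads in knockout-labelled and 103 in wild-type cells) and 1, KRTCAP2, in footprints, with none lower and medians of 0.25 in RNA and 0.27 in footprints. These are 18.2% in RNA, near the share of all genes, and 9.09% in footprints, below it, and RPN1 lies on the distal stretch of chromosome 3.

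Of 9 COPII partners, 3 were higher in RNA and none lower (median 0.41), and 2 were higher and 1 lower in footprints (median 0.42). The shares higher are 33.3% in RNA, above the 16.2% of all genes, and 22.2% in footprints, near 19.0%. MIA3, which loads large cargo such as procollagen, had 274 RNA reads in knockout-labelled and 136 in wild-type cells, its relative CTAGE5 had 86 RNA reads in knockout-labelled and 55 in wild-type cells, and KLHL12, a ubiquitin ligase adaptor for SEC31, had 419 RNA reads in knockout-labelled and 226 in wild-type cells. PEF1, which works with KLHL12, was lower in footprints, with 195 footprints in knockout-labelled and 324 in wild-type cells. Of 13 COPI partners, 3 were higher and 1 lower in RNA (median 0.38), and 5 were higher and none lower in footprints (median 0.51). The shares higher are 23.1% in RNA and 38.5% in footprints, beside 16.2% and 19.0% of all genes. ARF4, a GTPase of the ARF family, which recruits the coat, had 1717 RNA reads and 2099 footprints in knockout-labelled cells, against 962 and 1014 in wild type. ARCN1, the delta subunit of the same coat, had 1986 RNA reads in knockout-labelled and 1363 in wild-type cells, 1.62-fold higher. The KDEL receptors, which return ER residents, moved apart: KDELR3 had 254 RNA reads in knockout-labelled and 173 in wild-type cells and was higher, and KDELR1 had 560 RNA reads in knockout-labelled and 1004 in wild-type cells and was lower. KDELR2 was higher in footprints, with 1315 footprints in knockout-labelled and 837 in wild-type cells, as was ARFGAP2, with 372 footprints in knockout-labelled and 207 in wild-type cells.

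Of 12 other cargo receptors, 1 was higher in RNA (LMAN2L, 114 RNA reads in knockout-labelled and 80 in wild-type cells) and 4 in footprints, and none was lower, with medians of 0.30 and 0.33. The RNA share of 8.33% is below that of all genes, 16.2%, and the footprint share of 33.3% is above 19.0%. SURF4, which exports many soluble proteins, had 1510 RNA reads and 1232 footprints in knockout-labelled cells, against 1187 and 563 in wild type, 2.19-fold higher in footprints. Footprints were also higher for CNIH1, with 593 footprints in knockout-labelled and 359 in wild-type cells, for ERGIC2, with 222 footprints in knockout-labelled and 139 in wild-type cells, and for LMAN2L, with 66 footprints in knockout-labelled and 39 in wild-type cells. Of 22 tethers and SNAREs of the early pathway measured in RNA, 4 were higher and 1 lower (median 0.40). BNIP1, an ER SNARE for Golgi-to-ER vesicles, had 122 RNA reads in knockout-labelled and 47 in wild-type cells, and was higher. Of its tethering partners, RINT1 had 544 RNA reads in knockout-labelled and 390 in wild-type cells and NBAS had 506 RNA reads in knockout-labelled and 365 in wild-type cells, both higher. ZW10, another of these partners, had 204 RNA reads in knockout-labelled and 164 in wild-type cells and was not called. RINT1, NBAS and ZW10 were not called in footprints. GORASP2, a Golgi stacking protein, had 890 RNA reads in knockout-labelled and 654 in wild-type cells, and the SNARE STX18 was lower, with 37 RNA reads in knockout-labelled and 70 in wild-type cells. In footprints 5 of 23 were higher and 1 lower (median 0.35), among them BET1, an ER-to-Golgi SNARE, with 418 footprints in knockout-labelled and 195 in wild-type cells, and GOLGA2, with 345 footprints in knockout-labelled and 172 in wild-type cells. TRAPPC8 was lower, with 32 footprints in knockout-labelled and 56 in wild-type cells. The shares called higher in this list, 18.2% in RNA and 21.7% in footprints, are near those of all genes.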

How the data were processed

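Total RNA and ribosome-protected fragments (RPF) were compared between knockout-labelled and wild-type SW480 cells, grouped by library title. The files deposited by the authors give unnormalized whole-number counts for 19192 genes in each of 4 libraries, 1 Ensembl transcript being named per symbol. Size selection kept 18 to 34 nt for footprints and 18 to 50 nt for RNA, per the labels' protocols. Linkers carried random identifiers of 4 and 5 nt, ribosomal RNA was depleted, and cDNA was amplified over 15 cycles. Tools named, per the submitters' processing notes, are HISAT2 2.1.0, Bowtie 1.1.2 and cutadapt 1.10, and the build is GRCh38. What each tool did, which annotation and transcript region were counted, how reads shared by similar genes were handled, and whether identifiers were collapsed is not given in the sources used here.

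From these counts, libraries of a kind were scaled by TMM in edgeR 4.0.16 (R 4.3.3), a knockout-labelled to wild-type ratio of 0.900 for RNA and 1.00 for RPF. Log2 ratios used a prior count of 0.5 and exact conditional 95% intervals, and TE intervals came from reciprocal counts. Paralog shares have exact Clopper-Pearson 95% intervals, and a count of 0 allows up to 3 counts. Reads after PCR are not independent molecules, so intervals and floors cover counting error only. With 1 library per group, 0 residual degrees of freedom remain and no count test was run. The script was tested on simulated data. Ratios of summed reads used the same TMM scaling, and CPM and TE levels used library totals. Coordinates and lengths came from GENCODE 29 (GRCh38), which held all 51 listed transcripts. The rest used SciPy 1.17.1, pandas 2.3.3 and NumPy 2.4.6 under Python 3.11.15. CPM are reads scaled to equal library totals.

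Members, roles, lists and tests were chosen with earlier results of these data known. The genes given with full values are the SEC61 channel, the 6 members called on each side of each change with the interval bound farthest from no change, the highest and lowest per length in each group, paralogs, members under the minimum, and up to 4 partner genes per list, kind and direction. Other members are given by reads and change. Partner lists named 105 symbols, of which 100 were found. Alternatives covered size factors from DESeq2 1.42.0, scaling by totals, the read minimum, prior count, fold size, core members, transcript length and, added after seeing the data, the 6 genes of chromosome 3.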

Additional observations from a re-analysis of the deposited data

How the results depend on the processing

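No paired analysis was possible because each genotype has 1 library of each kind. Under the alternatives to scaling, prior count, read minimum and gene set, and with the 6 chromosome 3 genes left out, the median RNA change of all members ranged over 0.39 to 0.58, that of COPI over 0.61 to 0.69, of COPII over 0.30 to 0.55, of cargo receptors over 0.58 to 0.64 and of the translocon group over 0.13 to 0.29. RPF medians ranged over 0.49 to 0.56 for all members, 0.62 to 0.74 for COPI, 0.48 to 0.50 for COPII, 0.52 to 0.54 for cargo receptors and 0.16 to 0.56 for the translocon group, where 0.16 was the value without the chromosome 3 genes, as were the lowest RNA medians of the translocon, COPII, COPI and all-member sets. None of these RNA and RPF medians changed sign. The median TE change of the cargo receptors, -0.12 in the main setting, ranged over -0.15 to 0.005, so its sign was not stable. The other TE medians stayed above 0, at 0.02 to 0.07 for all members and 0.02 to 0.06 for COPI. They were 0.005 to 0.10 for COPII and 0.14 to 0.24 for the translocon group. For single genes, 134 changes, 41 of them called, were each set against 5 alternatives. Over these, 630 values stayed on their side of the threshold, 37 lost a call, 31 of them at a fold of 2, and 3 gained one. The others lost were the RNA change of SEC24C (0.57 with median-of-ratios scaling, 0.58 with a prior count of 5), the TE change of SEC11A (0.57 with total-count scaling, 0.56 with totals that leave out MTRNR2L genes and PLCG2, 0.58 with a prior count of 5) and the RPF change of SRP19 (0.58 with a prior count of 5). COPE gained its RNA call under both total-count scalings (0.59 and 0.61) and TMED1 under the one that leaves those genes out (0.61). A fold size of 2 is by construction stricter. It left 5 members higher in RNA (2 translocon, 2 COPII, 1 COPI, 0 cargo receptors), beside 6.39% of all genes, and 5 in RPF (3 translocon, 1 COPII, 1 COPI, 0 cargo receptors), beside 9.00%. The only such members outside the distal stretch of chromosome 3 were SEC24D in RNA and SEC24D and SRP72 in RPF. At that size TE was higher in 0 and lower in 0 members, with 0 and 0 in the translocon group and 0 lower in COPII. A minimum of 200 reads left 1 member lower in TE and 0 in COPII, and the median TE level of the translocon group in knockout-labelled cells was 0.49. A minimum of 20 reads, and a minimum of 1 read, gave 5 members higher in TE, with 1 in COPII and 1 in COPI. With core subunits only, by construction fewer genes, the translocon group had 2 higher in RNA and 2 in RPF, TE was higher in 0 and lower in 0 members, with 0 and 0 in the translocon group and 0 lower in COPII. Leaving out the 6 chromosome 3 genes, an alternative chosen after seeing the data, gave 2 translocon and 3 COPI genes higher in RNA, 3 translocon and 3 COPI genes higher in RPF, a translocon RPF median of 0.16, 1 member lower in TE and 0 in COPII, and 3 of the members with the promoter word higher in RNA and 3 in RPF. With coding length in place of transcript length, COPE ranked 2 in COPI in all 4 libraries, TMED9 ranked 3 in knockout-labelled RNA and 2 in the other libraries, SEC13 ranked 2 in knockout-labelled RNA and wild-type RPF, and SEC61G and SEC23B ranked 2 in wild-type RNA. Depth limits SEC61A2, SEC16B, SEC22C and COPZ2, whose low counts carry wide intervals or no ratio. The absence of replicate libraries limits every comparison.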

Other observations

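Transcription factors known to act on secretory pathway genes were among the genes called higher. Of the 5 measured of 6 listed, 3 were higher in RNA and 3 in footprints, with medians of 0.73 and 0.64 on the log2 scale and none lower. The background for all genes was 16.2% higher in RNA and 19.0% in footprints. CREB3L2, a membrane-tethered factor released in the Golgi that is known to act on coat genes such as SEC23A, had 756 RNA reads and 362 footprints in knockout-labelled cells, against 412 and 132 in wild type. That was 2.04-fold higher in RNA and 2.73-fold in footprints. XBP1, the factor made active by IRE1 splicing, had 488 RNA reads and 572 footprints in knockout-labelled cells, against 327 and 311 in wild type, or 1.66-fold and 1.84-fold. ATF6, released by Golgi proteolysis under ER stress, had 326 RNA reads and 327 footprints in knockout-labelled cells, against 197 and 210 in wild type, or 1.84-fold and 1.56-fold. ATF6B had 88 RNA reads and 173 footprints in knockout-labelled cells, against 119 and 190 in wild type, and CREB3 had 350 RNA reads and 345 footprints in knockout-labelled cells, against 330 and 231 in wild type, with no call for either. CREB3L1 was under the minimum, with 4 RNA reads and 9 footprints in knockout-labelled cells, against 8 and 1 in wild type. RNA abundance does not show whether these factors were cleaved, spliced or active, and SEC23A itself had an RNA change of 0.00 (-0.21 to 0.21).

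Each COPI coat unit holds 1 copy of each subunit type, with COPG1 or COPG2 as gamma and COPZ1 or COPZ2 as zeta. The subunits were set side by side by footprints per kilobase of coding sequence, scaled to the same total in every library. On this scale COPZ1 had a level of 377 in knockout-labelled and 300 in wild-type cells. COPE followed with 221 in knockout-labelled and 155 in wild-type cells, and COPB2 had 175 in knockout-labelled and 114 in wild-type cells. COPA and COPB1 had similar levels, 105 in knockout-labelled and 66.9 in wild-type cells for COPA and 104 in knockout-labelled and 75.3 in wild-type cells for COPB1. COPG1 had 205 in knockout-labelled and 79.1 in wild-type cells and COPG2 34.4 in knockout-labelled and 21.5 in wild-type cells. COPG1 taken alone stood near COPA and COPB1 in wild type and near COPE in knockout-labelled cells. COPG2 adds to the gamma level in both, so gamma as a whole lay higher than COPG1. The delta subunit ARCN1 is not among the members and was not set on this scale. These levels have no replicate check, and a footprint level is not a protein amount.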
